A study of Mus musculus with 7 samples.

Results

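Chemokines, interleukins, tumour necrosis factor and the receptors that bind them were followed in bulk RNA sequencing of injured mouse kidneys. The set held every protein-coding row of the deposited count table whose symbol was Ccl, Cxcl, Ccr, Cxcr or Ackr followed by digits, was Cx3cl1, Cx3cr1, Tnf, Tnfrsf1a or Tnfrsf1b, or began with Il and digits, with 1 such symbol left out. This gave 142 of the 42256 rows, under 138 symbols. By symbol they were grouped as 35 rows of chemokines, 17 of chemokine receptors, 4 of atypical chemokine receptors, 38 of interleukin or TNF ligands and 45 of interleukin or TNF receptors. Il1rn and Il18bp were grouped as 2 soluble antagonists. Others of that kind, such as Il1f5 and Il22ra2, stand among the ligands or receptors. The last row was an enzyme, Il4i1, which carries an interleukin-induced name and is no cytokine. Il11ra2 appeared in 3 rows and Ccl19 and Ccl27 in 2 rows each, from near-identical copies between which the division of reads is uncertain.

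The libraries came from whole kidneys of adult males of mixed strain (129S1/Sv x C57BL/6), 3 labelled CDH11+/+ (WT1 to WT3) and 4 labelled CDH11-/- (KO1 to KO4). These names follow the labels alone, and in each series of values WT1 to WT3 come before KO1 to KO4. All 7 mice had a kidney removed and an osmotic pump that released angiotensin II at 800 ng/kg/min, and were killed 4 weeks after surgery. No library came from a mouse without that injury, so a difference present before it cannot be told apart from a different response to it. Cdh11 encodes cadherin-11, an adhesion molecule of mesenchymal cells, and the type of the mutant allele is not described in the labels. Nothing in the labels ties any library to a litter or batch, and each is taken as 1 mouse.

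Chemokines are small secreted proteins that guide leukocytes along a gradient by binding G protein-coupled receptors, while atypical receptors bind the same ligands and remove them without that signal. Interleukins act through receptor chains that are often shared, such as gp130 (Il6st) for the interleukin 6 family, the common gamma chain (Il2rg) for interleukins 2, 7 and 15, and Il17ra for the interleukin 17 family. In the kidney, tubular epithelium and endothelium make several of these ligands and carry many of the receptors, and infiltrating leukocytes carry others. Interleukin 1 and TNF signal mainly through the transcription factor NF-kappaB, and the interleukin 6 and 22 receptors through STAT3.

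Total counts ranged from 72087906 to 84786351 per library, and 3 counts, taken as the limit for a gene without counts, stood for 0.0354 to 0.0416 CPM (counts scaled to a library of a fixed size). Counts of Cdh11 itself were 479, 338 and 932 in WT1 to WT3, against 953, 684, 1006 and 876 in KO1 to KO4. The groups overlapped and the targeted gene was not called (log2 fold change 0.56, adjusted p = 0.14, edgeR). It was thus not lower in the libraries labelled CDH11-/-. Because the allele is not described, its counts cannot check the labels in either direction. Without WT3 its log2 fold change was 0.93 (adjusted p = 0.0043, edgeR), and with limma-voom it was 0.75 (adjusted p = 0.0227). Directions are therefore given between libraries by their labels. Summed proximal tubule markers stood at 9826 to 16770 CPM, as kidney tissue has, while adipocyte markers reached at most 0.496 CPM and Adipoq had no count. WT3 stood apart in 2 ways. The 4 Y-linked transcripts (Ddx3y, Eif2s3y, Kdm5d and Uty) added up to 64.7 CPM in it against 110.8 to 144.9 in the other 6. It was also the highest of the 7 libraries for 32 of the 81 tested genes of the set (39.5%, against 18.2% of all tested genes). Results are given with and without it where it changes them.

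Of the 142 rows, 15 had no count in any library, and 81 passed the filter on low counts and were tested. A gene was called at an adjusted p under 0.05 from edgeR's quasi-likelihood test across all 17964 genes tested. Of the 81, 21 were called: 6 rose and 15 fell in KO1 to KO4 relative to WT1 to WT3. That is 25.9% called, against 29.7% of all tested genes. The share called higher was 7.41% against 16.8% of all genes, and the share called lower 18.5% against 12.9%. The 2 groups of libraries did not overlap in 20 of the 81 (24.7%), against 38.5% of all genes. The median log2 fold change was -0.06 over the 81 and -0.01 over all genes. The set as a whole was therefore called no more often than the kidney transcriptome, and its median was close to that of all genes. The set was also less abundant, with a median of 1.08 CPM against 9.98 CPM over all tested genes. In bulk tissue, fewer cells of a type and less RNA per cell cannot be told apart.

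**Figure D1:**
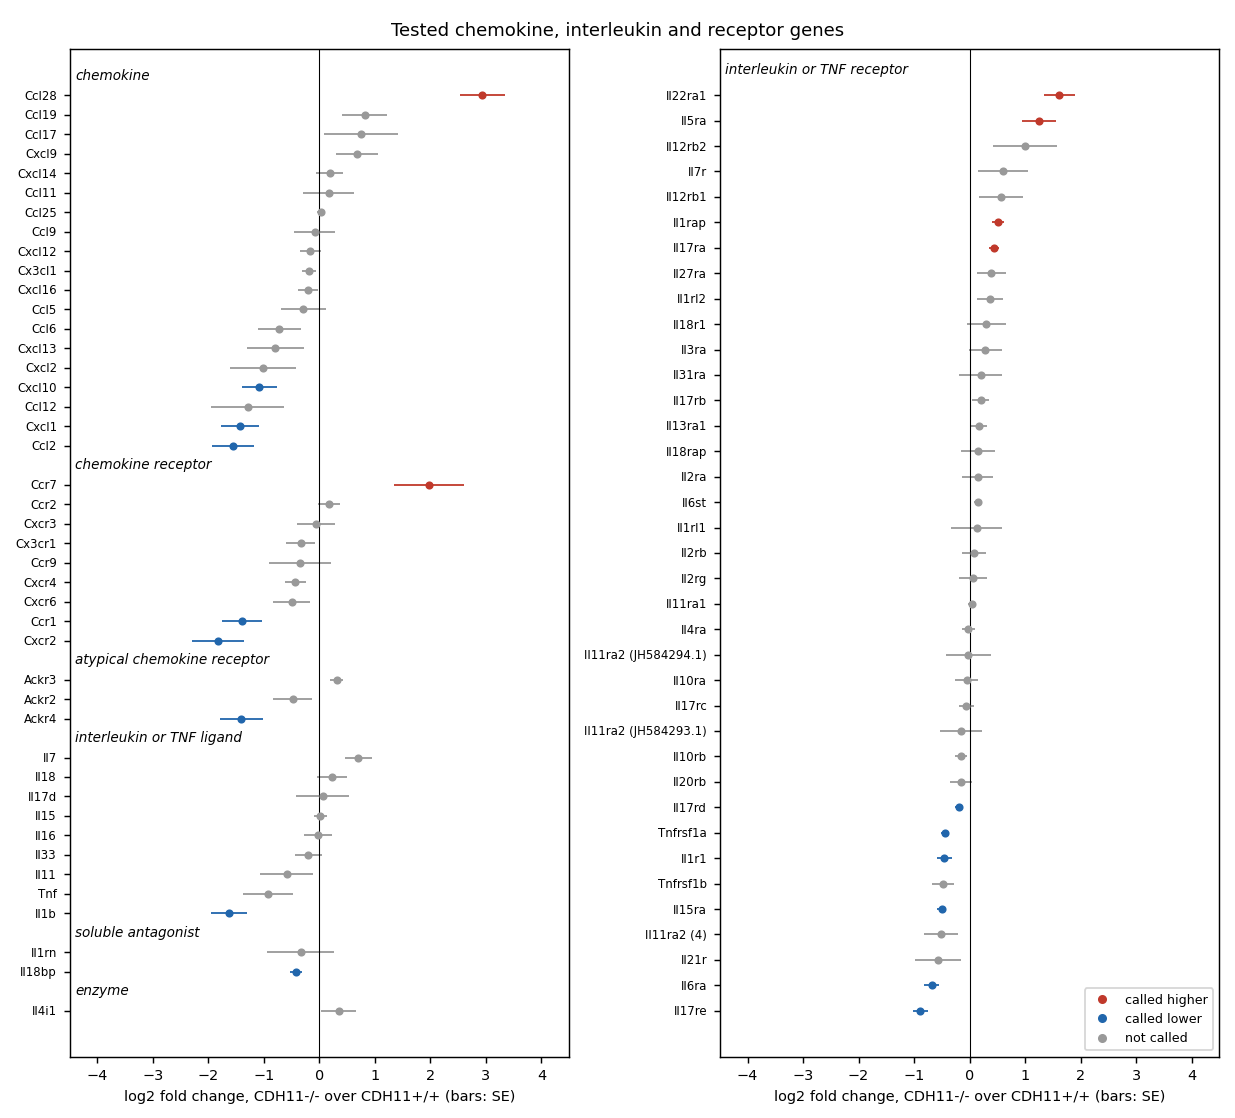
Log2 fold change (x axis, knockout-labelled over wild-type-labelled libraries) of 80 of the tested genes, ordered within roles, with bars for the SE and colours for the call. Ccl28 stands farthest to the right at 2.94 and Cxcr2 farthest to the left at -1.83, and 6 genes are red and 14 blue.

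Ccl28, a chemokine of epithelia that attracts cells bearing CCR10 or CCR3, showed the largest difference of the set. It stood at 6.05, 5.72 and 5.81 CPM in WT1 to WT3 and at 19.8, 47.1, 52.95 and 59.8 CPM in KO1 to KO4. The groups did not overlap, the 3 wild-type-labelled values were nearly equal, and KO1 was the lowest of its group. Ccl28 rose 7.66-fold (log2 fold change 2.94, SE 0.397, adjusted p = 0.00275, edgeR) and was called in every alternative and without each library in turn, with log2 fold changes of 2.77 to 3.19. Its receptors were near the limit of detection, with 8, 6 and 7 counts of Ccr10 against 3, 16, 6 and 11, and at most 1 count of Ccr3 in any library. Ccl28 (ENSMUSG00000074715) lies on mm10 chromosome 13, 119623819 to 119654359, plus strand. Proximal tubule markers were also higher in these libraries. Of 10, 6 were called higher (60.0%, against 16.8% of all tested genes) and 0 lower. Their summed level was 9826 to 11150 CPM against 14830 to 16770 CPM, and their part in the Ccl28 result was not tested.

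Of the called chemokines 3 fell, and all are ligands that inflamed tissue is known to make. Cxcl1, which attracts neutrophils through CXCR2, stood at 1.01, 1.43 and 1.32 CPM against 0.685, 0.237, 0.358 and 0.564 CPM. Ccl2, which attracts monocytes through CCR2, stood at 0.794, 0.468 and 1.16 CPM against 0.402, 0.196, 0.208 and 0.288 CPM. In neither gene did the groups overlap, and both stayed called without each library in turn (log2 fold change -1.43, SE 0.337, adjusted p = 0.0119 for Cxcl1, and -1.55, SE 0.377, adjusted p = 0.0137 for Ccl2, edgeR). Cxcl10, an interferon-induced ligand of CXCR3, stood at 4.03, 2.21 and 6.599 CPM against 1.91, 1.76, 2.15 and 2.24 CPM, so the groups overlapped and WT3 was the highest. Its log2 fold change was -1.09 (SE 0.313, adjusted p = 0.0310, edgeR). It was no longer called when any library but WT2 was left out, with limma-voom (adjusted p = 0.0569), or with the deposited factors in limma-trend (adjusted p = 0.0946) or as edgeR offsets (adjusted p = 0.0569), and without WT3 the log2 fold change was -0.63 (adjusted p = 0.0745).

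The bases before the starts of these genes are shown because Cxcl1, Cxcl2 and Cxcl10 lie on chromosome 5 and are textbook NF-kappaB targets, Il1b is another that fell, and Ccl28 moved the other way. Cxcl2, the neighbour of Cxcl1 with the same receptor, was not called (0.128, 0.0803 and 0.243 CPM against 0.142, 0.0699, 0.0578 and 0.0251 CPM, adjusted p = 0.229, edgeR). Each line gives the 170 bases upstream of the RefSeq start (GRCm38.p6, the assembly of mm10), 5′ to 3′ on the gene's strand. Capitals mark matches to the NF-kappaB letters (GGG, any 5 bases, CC) on either strand, where overlapping matches run together. The 170 bases before Il1b held no match.
Cxcl1, chr5:90891075-90891244, plus strand: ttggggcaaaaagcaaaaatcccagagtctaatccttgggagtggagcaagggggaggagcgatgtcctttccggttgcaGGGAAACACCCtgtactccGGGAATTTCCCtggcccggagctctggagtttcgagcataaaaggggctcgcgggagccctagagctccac
Cxcl2, chr5:90903729-90903898, plus strand: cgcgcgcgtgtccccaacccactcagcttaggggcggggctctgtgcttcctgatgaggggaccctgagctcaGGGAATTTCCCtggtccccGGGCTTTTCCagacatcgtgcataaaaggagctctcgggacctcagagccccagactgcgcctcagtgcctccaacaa
Cxcl10, chr5:92348890-92349059, minus strand: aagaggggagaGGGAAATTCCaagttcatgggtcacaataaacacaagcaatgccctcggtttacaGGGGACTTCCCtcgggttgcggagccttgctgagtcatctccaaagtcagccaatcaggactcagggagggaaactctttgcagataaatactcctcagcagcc
Ccl28, chr13:119623649-119623818, plus strand: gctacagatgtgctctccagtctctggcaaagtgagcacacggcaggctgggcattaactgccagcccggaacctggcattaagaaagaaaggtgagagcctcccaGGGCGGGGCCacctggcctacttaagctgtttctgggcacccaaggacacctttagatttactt
Il1b, chr2:129371140-129371309, minus strand: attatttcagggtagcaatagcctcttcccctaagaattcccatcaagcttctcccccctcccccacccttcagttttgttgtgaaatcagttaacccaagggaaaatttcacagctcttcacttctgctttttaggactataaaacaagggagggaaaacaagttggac
These letters are common: 50.8% of all 32851 promoter windows of the table (250 bases before to 50 after a start) held a match. Of the 78 windows of tested genes of the set 59.0% did, of the 15 windows of genes called lower 66.7%, and 3 of the 4 windows of genes called higher. The full run GGGAATTTCC, picked after the sequences were seen, stood in 0.0883% of all windows (29), among tested genes of the set in those of Cxcl1, Cxcl2 and Il16. Il16, a chemoattractant of CD4+ cells, stood at 1.71 to 3.89 CPM against 2.27 to 3.39 CPM and was not called (log2 fold change -0.03, adjusted p = 0.948, edgeR). The STAT letters (TTC, any 3 bases, GAA) were in 8.3% of all windows and in 1 of the 15 windows of genes called lower. A window was at hand for 65 of the 79 tested symbols, and for Ccl2 none was.

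Cx3cl1, Cxcl12 and Cxcl16 were abundant chemokines that did not pass the test. Cx3cl1, the membrane-bound ligand of CX3CR1, stood at 70.8, 71.7 and 102.2 CPM against 74.5, 73.0, 67.8 and 71.3 CPM (log2 fold change -0.19, SE 0.123, adjusted p = 0.288, edgeR). Cxcl12, the ligand of CXCR4 and ACKR3, stood at 108.2, 94.5 and 162.3 CPM against 92.2, 107.9, 128.6 and 105.8 CPM (adjusted p = 0.552, edgeR). Cxcl16, the ligand of CXCR6, stood at 24.1, 21.5 and 38.5 CPM against 25.2, 24.3, 24.4 and 23.4 CPM (adjusted p = 0.435, edgeR). In each of these genes WT3 was the highest, and without it the log2 fold changes were -0.00, 0.09 and 0.09. The other 8 uncalled chemokines averaging 0.5 CPM or more were Cxcl14, Ccl25, Ccl6, Ccl19, Cxcl9, Ccl9, Cxcl13 and Ccl5, with log2 fold changes of -0.80 (Cxcl13) to 0.81 (Ccl19). Cxcl14 stood at 5.86 to 12.3 CPM against 8.81 to 13.1 CPM, Ccl6 at 1.13 to 3.25 CPM against 0.768 to 1.61 CPM and Ccl9 at 0.468 to 0.890 CPM against 0.377 to 0.827 CPM. Cxcl9, a ligand of CXCR3, stood at 0.268 to 0.901 CPM against 0.732 to 1.203 CPM, and Cxcl13, which attracts B cells, at 0.495 to 1.32 CPM against 0.150 to 0.727 CPM. Ccl5, which T cells make, stood at 0.624, 0.281 and 0.936 CPM against 0.650, 0.307, 0.544 and 0.501 CPM. Ccl25 was at 11.8 to 13.4 CPM in all 7 libraries (log2 fold change 0.03), but 0.32 (adjusted p = 0.0166, edgeR) when the factors of the deposited normalized values served as offsets.

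The chemokine receptors Cxcr2 and Ccr1 fell and Ccr7 rose, all at low counts. Cxcr2, the neutrophil receptor of CXCL1 and CXCL2, had 29, 20 and 45 counts against 5, 5, 9 and 17 (0.411, 0.268 and 0.520 CPM against 0.0591, 0.0699, 0.104 and 0.213 CPM). Ccr1, a receptor of monocytes and neutrophils, stood at 0.524, 0.522 and 1.04 CPM against 0.248, 0.280, 0.173 and 0.363 CPM. In both genes the groups did not overlap. The log2 fold changes were -1.83 (SE 0.466, adjusted p = 0.0169) and -1.39 (SE 0.360, adjusted p = 0.0181, edgeR). Without WT3 they were -1.60 (adjusted p = 0.0511) and -0.98 (adjusted p = 0.0664), and the Cxcr2 call was also lost without WT1. Neutrophil markers moved with them: of 6 listed genes 4 were tested and 3 called lower (S100a8, S100a9 and Retnlg). That is 75.0% of those tested, against 12.9% of all tested genes called lower. The summed level of the list was 2.76 to 6.95 CPM against 0.732 to 2.67 CPM. Csf3r was not called (adjusted p = 0.0789), Mmp8 and Ly6g were under the filter, and 1 marker was called lower without WT3 or KO2. The part of neutrophil markers in the falls of Cxcr2, Ccr1, Cxcl1 and Il1b was not tested.

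Ccr7, which guides T cells and mature dendritic cells to lymph nodes, had 4, 1 and 8 counts against 17, 8, 34 and 14. Its CPM did not overlap (log2 fold change 1.97, SE 0.633, adjusted p = 0.0426, edgeR), but the call was lost without WT1 or WT2, and the log2 fold change was 2.62 without WT3. Only 4 of the fits with 1 library left out tested Ccr7, and 2 of these called it. In the others it did not pass the filter on low counts. Ccl19, a ligand of CCR7, was at 1.18, 0.334 and 1.41 CPM against 1.77, 1.27, 1.96 and 1.85 CPM and was not called (adjusted p = 0.172, edgeR). Of 7 dendritic cell markers Itgax was called higher and Zbtb46 lower (28.6% called, against 29.7% of all tested genes). The summed level of the 7 was 25.9 to 28.8 CPM against 20.3 to 22.3 CPM, lower in each knockout-labelled library. Their median log2 fold change was 0.15, so most of the list did not fall with the sum. DESeq2 and limma-voom each called 3 of them higher, with 2 and 1 lower. No marker of that list was called higher when any library but WT3 was left out, and without WT3 3 were called higher and 1 lower. The part of these cells in the Ccr7 result was not tested.

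Ccr2, Cx3cr1, Cxcr4 and Cxcr6 were not called. Ccr2, the monocyte receptor of CCL2, stood at 7.41, 4.04 and 6.24 CPM against 5.86, 8.13, 6.63 and 5.96 CPM (log2 fold change 0.17, adjusted p = 0.561, edgeR). Cx3cr1, a receptor of resident macrophages, stood at 4.22, 3.16 and 6.74 CPM against 4.35, 3.12, 4.48 and 3.01 CPM (adjusted p = 0.374, edgeR). The groups overlapped in both. Cxcr4 was lower in each knockout-labelled library (3.13 to 3.41 CPM against 1.64 to 2.98 CPM) without passing the test (adjusted p = 0.118, edgeR). Cxcr6, a receptor of tissue T cells, stood at 0.401 to 0.890 CPM against 0.319 to 0.555 CPM (adjusted p = 0.288, edgeR). Macrophage and monocyte markers had 1 of 14 called higher (Csf1r) and 0 lower, which is 7.14% called against 29.7% of all tested genes. Their summed level was 76.4 to 142.7 CPM against 107.3 to 145.7 CPM. The median log2 fold change of these markers was -0.30, against -0.01 over all tested genes, so most of the list did not follow the sum. Without WT2, 5 of them were called lower, and the Csf1r call was lost without WT1 or KO1, KO3 or KO4.

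Among the atypical receptors, Ackr4, which scavenges CCL19, CCL21 and CCL25, had 14, 16 and 12 counts against 6, 4, 7 and 5 (log2 fold change -1.41, adjusted p = 0.0219, edgeR). Its groups did not overlap, though the call was lost without WT1, WT2 or KO2, with DESeq2 (adjusted p = 0.0624) and with no filter on low counts (adjusted p = 0.0506). Of its exon bases, 8.9% overlap Acad11 on the opposite strand. The strand setting of the counting was not given, so reads of these genes may be mixed. Ackr3, which scavenges CXCL12, stood at 21.8, 25.6 and 31.9 CPM against 31.8, 34.2, 34.7 and 30.5 CPM and was not called (log2 fold change 0.31, adjusted p = 0.0768, edgeR). It was called without WT3 (0.46, adjusted p = 0.00569) and with limma-voom (0.42, adjusted p = 0.0154).

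**Figure D2:**
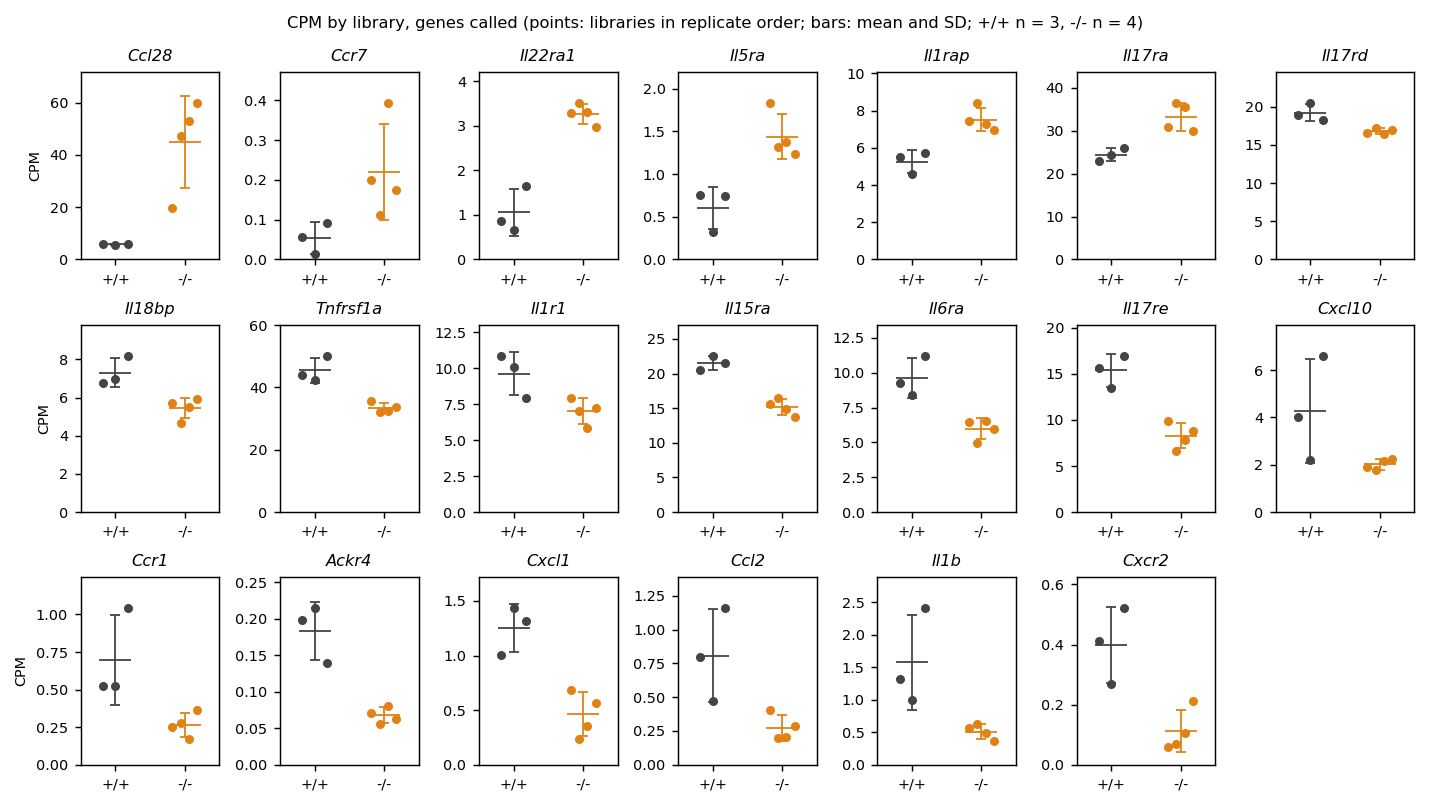
CPM of 20 of the called genes in each library (points, in replicate order, with mean and SD), wild-type-labelled in grey and knockout-labelled in orange, with each y axis starting at 0. Ccl28 rises from about 6 CPM to between 19.8 and 59.8 CPM, and the grey point of WT3 is the highest for Il1b, Cxcl10, Ccr1 and Cxcr2.

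Il1b was the single interleukin or TNF ligand called among 9 tested (11.1%, against 29.7% of all tested genes). It encodes interleukin 1 beta, made mainly by activated myeloid cells, and stood at 1.32, 1.003 and 2.40 CPM against 0.567, 0.629, 0.486 and 0.363 CPM. The groups did not overlap. It was 3.09-fold lower in the knockout-labelled libraries (log2 fold change -1.63, SE 0.325, adjusted p = 0.0057, edgeR), and -1.19 (adjusted p = 0.0128) without WT3. Tnf, the other classical ligand of NF-kappaB signalling, had 10, 19 and 32 counts against 7, 11, 9 and 16 and missed the threshold (log2 fold change -0.93, SE 0.446, adjusted p = 0.15, edgeR). Il33, an alarmin of stromal and endothelial cells, stood at 4.56, 4.79 and 9.01 CPM against 4.82, 5.14, 6.33 and 5.10 CPM (adjusted p = 0.565, edgeR), again with WT3 the highest.

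The remaining ligands were not called. Il15, which sustains natural killer and memory T cells, was at 6.83 to 8.31 CPM against 6.89 to 8.96 CPM (log2 fold change 0.02, adjusted p = 0.92, edgeR). Il18, activated by caspase-1, had 23, 37 and 34 counts against 35, 41, 35 and 41 (adjusted p = 0.561, edgeR). Il7, a survival factor of lymphocytes, stood at 0.425, 0.334 and 0.508 CPM against 0.697, 0.727, 0.613 and 0.727 CPM, with no overlap and just outside the threshold (log2 fold change 0.70, adjusted p = 0.0553, edgeR). It was called without WT3 (adjusted p = 0.0444) and with limma-voom (adjusted p = 0.0424). Il6 had 1, 1 and 10 counts against 9, 1, 1 and 0 and did not pass the filter on low counts, and Il10 had a single count over the 7 libraries.

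Of the 2 genes grouped as soluble antagonists, Il18bp, which binds and neutralises interleukin 18, stood at 6.78, 6.97 and 8.18 CPM against 5.71, 4.68, 5.48 and 5.92 CPM with no overlap (log2 fold change -0.42, adjusted p = 0.0216, edgeR). The call was lost without WT3 (adjusted p = 0.0626) or KO3. Il1rn, the interleukin 1 receptor antagonist, stood at 0.156 CPM on average and was not called.

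Of the 5 tested receptor chains of the interleukin 17 family, Il17ra rose, Il17re and Il17rd fell, and Il17rb and Il17rc were not called. Of all tested genes 29.7% were called. Il17ra, the chain shared by the family, stood at 23.0, 24.4 and 25.9 CPM against 30.9, 36.4, 35.5 and 29.9 CPM. Il17re, which pairs with it to bind interleukin 17C on epithelial cells, stood at 15.7, 13.5 and 16.9 CPM against 9.91, 6.65, 7.82 and 8.78 CPM. In both the groups were apart, Il17ra 1.36-fold higher (log2 fold change 0.44, SE 0.086, adjusted p = 0.00511) and Il17re 1.85-fold lower (-0.89, SE 0.135, adjusted p = 0.00169, edgeR), and both kept their call in every alternative and without each library. Il17rc, which pairs with it for interleukins 17A and 17F, stood at 12.4, 11.8 and 10.98 CPM against 12.5, 9.03, 13.2 and 10.1 CPM (adjusted p = 0.769, edgeR). Il17rd, also known as an inhibitor of FGF signalling, was 1.14-fold lower (adjusted p = 0.0495), a call lost without each library except WT3, with the deposited factors and with no filter on low counts. Il17rb, which binds interleukin 25, stood at 4.52 to 5.10 CPM against 4.74 to 6.89 CPM (log2 fold change 0.20, adjusted p = 0.349, edgeR). The ligands were scarce: Il17a and Il17c had no count in any library, and Il17f had 6, 1 and 1 counts against 10, 13, 9 and 15, under the filter.

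Il22ra1, the epithelial chain that binds interleukin 22, rose 3.07-fold, from 0.865, 0.655 and 1.65 CPM to 3.28, 3.51, 3.32 and 2.97 CPM. The knockout-labelled libraries averaged 3.27 ± 0.223 CPM (SD, n = 4), and the groups did not overlap (log2 fold change 1.62, SE 0.283, adjusted p = 0.00322, edgeR). Without WT3, the highest of its group, it was 2.10 (adjusted p = 0.000193). Its partner Il10rb stood at 19.9 to 26.0 CPM against 18.6 to 22.5 CPM and was not called (log2 fold change -0.16, adjusted p = 0.289, edgeR), and Il22 had no count.

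In the interleukin 1 receptor family, the ligand-binding Il1r1 was lower and the accessory chain Il1rap higher. Il1rap, which Il1r1 and the interleukin 33 receptor Il1rl1 both need, stood at 5.49, 4.58 and 5.72 CPM against 7.42, 8.40, 7.29 and 6.94 CPM with no overlap (log2 fold change 0.51, SE 0.113, adjusted p = 0.00877, edgeR). Il1r1 stood at 10.9, 10.1 and 7.94 CPM against 7.96, 7.04, 5.83 and 7.22 CPM, where the lowest of the first group met the highest of the second (log2 fold change -0.46, SE 0.135, adjusted p = 0.0315, edgeR). The call for Il1r1 was lost without WT1 or WT2 or KO2, KO3 or KO4. Il1rl1, Il1rl2, Il18r1 and Il18rap were not called, with Il1rl2, the interleukin 36 receptor, at 0.963 to 1.77 CPM against 1.57 to 2.19 CPM and Il18rap at 0.468 to 0.994 CPM against 0.625 to 1.08 CPM.

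Il6ra, the chain that binds interleukin 6, fell 1.61-fold, from 9.30, 8.40 and 11.2 CPM to 6.44, 4.95, 6.57 and 6.00 CPM with no overlap (log2 fold change -0.69, SE 0.131, adjusted p = 0.00466, edgeR). Its signalling partner Il6st, the most abundant gene of the set by CPM, stood at 216.0, 205.2 and 242.6 CPM against 242.5, 252.1, 240.8 and 243.7 CPM and was not called (log2 fold change 0.15, adjusted p = 0.151, edgeR). Without WT3 it was called at 0.21 (adjusted p = 0.0356). Il11ra1, the interleukin 11 receptor that also signals through Il6st, was at 34.5 to 36.5 CPM against 32.1 to 38.9 CPM (log2 fold change 0.04, adjusted p = 0.703, edgeR), and Il11 had 12, 23 and 14 counts against 16, 15, 9 and 5 (adjusted p = 0.384, edgeR).

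Tnfrsf1a, the TNF receptor of most tissue cells, fell 1.36-fold, from 43.9, 42.3 and 50.2 CPM to 35.7, 32.3, 32.4 and 33.6 CPM with no overlap (log2 fold change -0.44, SE 0.073, adjusted p = 0.00239, edgeR). Tnfrsf1b, the TNF receptor of leukocytes and endothelium, stood at 6.35, 5.76 and 10.2 CPM against 4.996, 4.485, 6.19 and 5.74 CPM and was not called (log2 fold change -0.48, SE 0.204, adjusted p = 0.111, edgeR). Il15ra, which presents interleukin 15 to neighbouring cells, was 1.42-fold lower, at 20.4, 22.6 and 21.6 CPM against 15.6, 16.5, 14.9 and 13.7 CPM (log2 fold change -0.51, SE 0.077, adjusted p = 0.00166, edgeR). It had the smallest adjusted p of the set. Neither the Il15ra nor the Tnfrsf1a call was lost in any alternative or without any library.

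Il5ra, the interleukin 5 receptor of eosinophils and some B cells, rose 2.38-fold from 0.751, 0.321 and 0.740 CPM to 1.83, 1.31, 1.38 and 1.24 CPM (log2 fold change 1.25, SE 0.307, adjusted p = 0.0143, edgeR). The groups did not overlap, but with the deposited gene-specific factors the adjusted p was 0.0862 as offsets and 0.067 with limma-trend. Il5 had 3 counts in all. The lymphocyte receptor chains Il2rb, Il2rg, Il7r, Il21r and Il2ra were not called, with log2 fold changes of -0.57 (Il21r) to 0.61 (Il7r). Of these, Il2rg stood at 0.990 to 2.28 CPM against 1.72 to 2.07 CPM, Il2rb at 0.856 to 1.39 CPM against 1.10 to 1.40 CPM and Il21r at 0.455 to 1.71 CPM against 0.551 to 0.775 CPM. T cell markers had 0 of 9 and B cell markers 0 of 6 called in either direction (edgeR), against 29.7% of all tested genes. Summed levels were 2.23 to 7.03 CPM against 3.24 to 4.44 CPM for T cells and 4.82 to 13.4 CPM against 12.5 to 17.2 CPM for B cells. A B cell marker was called higher with DESeq2, with limma-voom or without WT3, and a T cell marker lower without WT2. The type 2 receptors Il4ra, at 18.5 to 24.7 CPM against 18.8 to 23.1 CPM, and Il13ra1, at 28.8 to 39.7 CPM against 33.8 to 47.3 CPM, were not called. The same held for Il10ra, the interleukin 10 binding chain of leukocytes (2.27 to 4.18 CPM against 3.01 to 3.75 CPM), and for Il20rb (0.913 to 1.28 CPM against 0.950 to 1.15 CPM). Il27ra (0.495 to 1.03 CPM against 0.909 to 1.18 CPM), Il3ra (0.428 to 0.982 CPM against 0.727 to 1.06 CPM) and the enzyme Il4i1 (0.340 to 0.763 CPM against 0.627 to 1.02 CPM) were not called either.

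Levels can be compared between genes only per length, as CPM per kb of exon. On that scale Cx3cl1 was the highest ligand, at 20.8 ± 4.55 (SD, n = 3) and 18.2 ± 0.734 (SD, n = 4) CPM per kb in the wild-type-labelled and knockout-labelled group. Cxcl12 followed at 14.9 ± 4.38 and 13.3 ± 1.84, and Cxcl16 at 9.28 ± 3.04 and 8.05 ± 0.241. The intervals of Cx3cl1 and Cxcl12 overlapped in the first group and were apart in the second. Ccl28 stood at 1.21 ± 0.0349 in the wild-type-labelled group, below Il15 (3.32), and at 9.27 ± 3.62 in the other, where it could not be told apart from Cxcl16 within the SD. Of the receptors, Il6st was at 19.9 ± 1.73 and 22.1 ± 0.454 and Tnfrsf1a at 17.6 ± 1.60 and 12.9 ± 0.608, so that the spreads of the 2 receptors overlapped in the wild-type-labelled group and were apart in the other. Il13ra1, Ackr3 and Il11ra1 came next at 7.89 to 10.6. Il22ra1 stood at 0.412 ± 0.205 and 1.27 ± 0.0867, far below its partner Il10rb at 6.08 and 5.43.

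**Figure D3:**
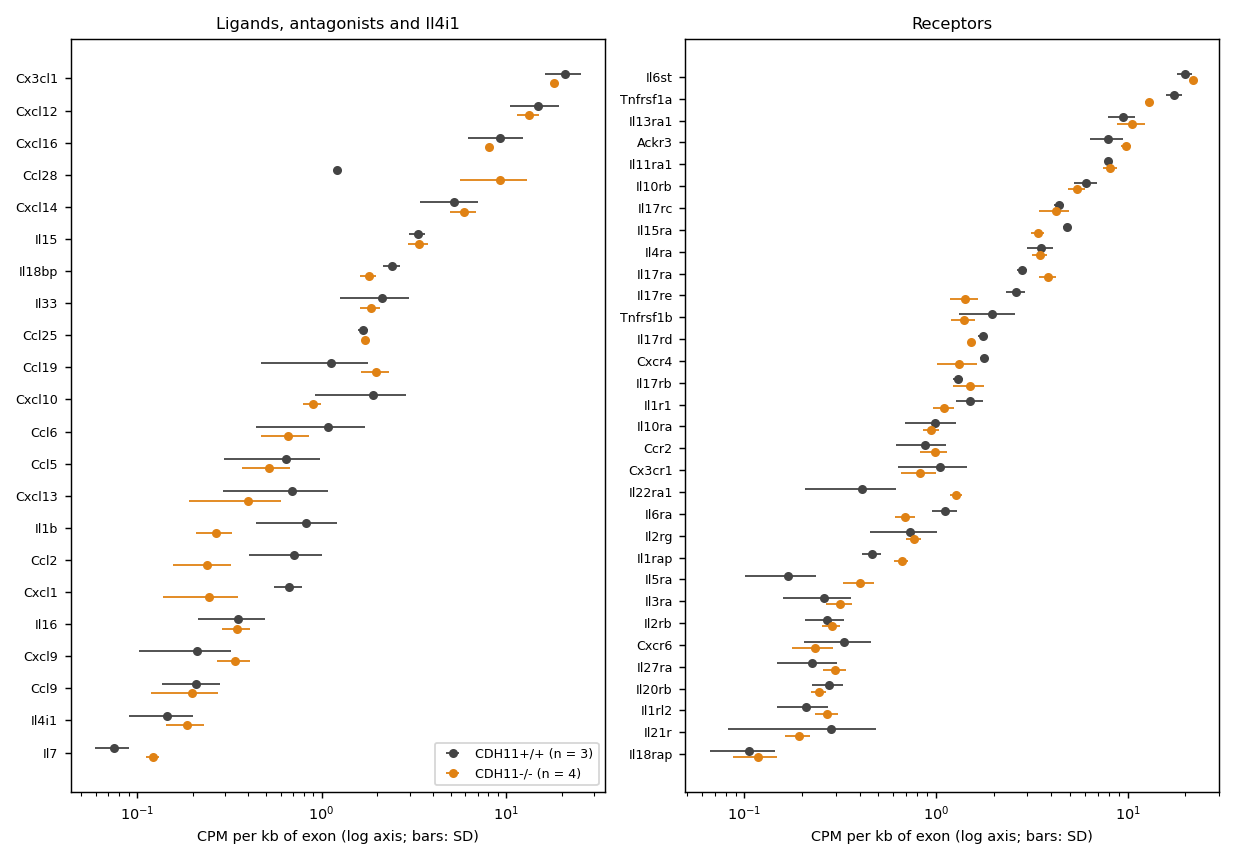
Mean CPM per kb of exon (log x axis, bars SD) of tested genes averaging 0.5 CPM or more, in wild-type-labelled (grey, n = 3) and knockout-labelled (orange, n = 4) libraries, in order of level. Cx3cl1 and Il6st lead the 2 panels at about 20, and the Ccl28 points are apart at 1.21 and 9.27.

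The 22 tested genes that were under 0.5 CPM and not called had log2 fold changes of -1.29 (Ccl12) to 0.99 (Il12rb2) and adjusted p from 0.15 upward (edgeR), and these counts limit what could be detected. The 61 untested rows averaged at most 0.128 CPM. Among them were the neutrophil ligands Cxcl3 and Cxcl5, with at most 6 counts in a library, and the helper T cell cytokines Il4, Il13, Il17a and Il9, of which Il13, Il17a and Il9 had no count. A gene without counts could still have been present at up to 0.0354 to 0.0416 CPM, a limit that covers counting error only.

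The median level of the set differed between the wild-type-labelled libraries, though not every gene followed it. The median, over the 81 genes, of a library's deviation from each gene's mean, on the scale log2(CPM + 0.1), was 0.08, -0.19 and 0.21 in WT1 to WT3 and -0.09 to 0.06 in the other 4 libraries. Over all tested genes these medians lay between -0.01 and 0.02. The scaling of the libraries keeps the latter small by design, so they are no separate check. Among the 3 wild-type-labelled libraries WT3 was the highest for 52 of the 81 genes (64.2%), where it was so for 38.3% of all tested genes. The summed pan-leukocyte markers followed the same order, at 39.6, 24.3 and 49.99 CPM in WT1 to WT3 and 29.8 to 35.03 CPM in the other group, with 0 of 5 markers called (edgeR), and 2 called lower without WT2. That order was not particular to leukocytes. Endothelial markers summed to 499.5, 457.0 and 578.7 CPM in WT1 to WT3, and fibroblast and pericyte markers to 370.7, 276.1 and 449.5 CPM. Podocyte markers did not follow it, at 498.3, 424.5 and 402.8 CPM. The part of any of these cell types in the order of the set was not tested. Without WT3, 20 genes of the set were called, 10 higher and 10 lower, of which 16 were among the 21. Those that lost their call included Cxcl10, Ccr1, Cxcr2 and Il18bp, and Ackr3, Il12rb2, Il6st and Il7 gained one, each higher. The median log2 fold change of the 81 was then 0.09, and -0.24 without WT2. The shares of all genes called in these fits are not given, so the shifts cannot be called particular to the set.

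**Figure D4:**
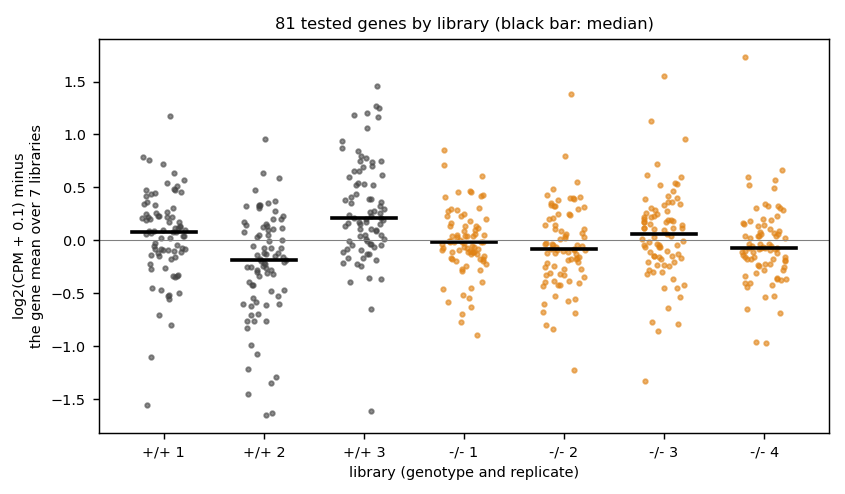
Deviation of each of the 81 tested genes from its mean over the 7 libraries (y axis, log2 of CPM plus 0.1), by library, with the median as a black bar. The median is highest in WT3 (0.21) and lowest in WT2 (-0.19), with the 4 knockout-labelled libraries between them.

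Genes that carry the signal of these receptors were taken from lists that do not overlap the set. In the list of NF-kappaB factors and inhibitors 6 of 16 genes fell and 1 rose, which is 43.8% called against 29.7% of all genes, with a median log2 fold change of -0.22 against -0.01. Nfkb2, a subunit precursor of the alternative pathway, stood at 22.1, 21.1 and 23.0 CPM against 16.2, 12.5, 15.4 and 14.2 CPM (log2 fold change -0.60, adjusted p = 0.00165, edgeR). Tnfaip3, the feedback inhibitor A20, stood at 9.03, 10.3 and 10.7 CPM against 6.96, 6.18, 6.36 and 5.19 CPM (-0.70, adjusted p = 0.00224), and Nfkb1 fell by 0.32 on the log2 scale (adjusted p = 0.01, edgeR). Chuk, a kinase of the pathway, rose from 86.8, 91.1 and 74.05 CPM to 110.1, 130.7, 120.3 and 123.5 CPM (0.53, adjusted p = 0.00237, edgeR). Rela, Relb and Nfkbiz were called lower too, but 3 genes of the list were called lower without WT3, and 3 without KO2. Endothelial markers (5 of 8, 62.5%), podocyte markers (4 of 5, 80.0%) and distal nephron and collecting duct markers (5 of 8, 62.5%) were also called lower in these libraries. Of all tested genes 12.9% were called lower. Distal summed levels were 6095 to 6645 CPM against 4384 to 4955 CPM. Endothelial ones were 457.0 to 578.7 CPM against 337.4 to 414.1 CPM, and podocyte ones 402.8 to 498.3 CPM against 249.3 to 366.9 CPM. The part of these markers was not tested. The distal number was 2 without WT1, KO1 or KO3, and 3 without KO2. The endothelial number was 2 without WT1, and 3 without WT3 or KO1 or KO4.

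In the JAK, STAT and SOCS list 3 of 23 genes fell and 2 rose, with a median log2 fold change of 0.08. That is 21.7% called, below the 29.7% of all genes. Stat3, the factor downstream of Il6st and Il22ra1, stood at 101.9, 108.9 and 104.3 CPM against 77.1, 66.0, 64.2 and 73.9 CPM, with no overlap (log2 fold change -0.58, adjusted p = 0.000707, edgeR). Socs3, its feedback inhibitor and target, stood at 4.69, 3.91 and 14.6 CPM against 2.60, 2.44, 2.71 and 2.12 CPM (-1.65, adjusted p = 0.0295, edgeR), a call lost without each knockout-labelled library in turn, with limma-voom and with no filter. Socs5 was lower, and Stat5a and Socs6 higher. The number called higher was 0 without WT2, 1 without WT1 or KO2, and 4 without WT3 or KO1.

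Among related cytokines and receptors outside the symbol rule 4 of 28 genes fell and 2 rose, with a median of -0.23. That is 21.4% called, below the 29.7% of all genes. Osmr, which pairs with Il6st to bind oncostatin M, stood at 28.6, 26.3 and 45.3 CPM against 17.3, 19.1, 17.6 and 18.6 CPM (log2 fold change -0.88, adjusted p = 0.00687, edgeR). Clcf1, a ligand of the interleukin 6 family, stood at 8.08, 7.62 and 7.55 CPM against 3.99, 4.499, 3.26 and 4.05 CPM (-0.97, adjusted p = 0.000528, edgeR). Tnfrsf12a, the receptor of the cytokine TWEAK, also fell (-0.94, adjusted p = 0.00413, edgeR), as did Mif, while Csf1r and Crlf2 rose. The Mif groups overlapped, and its call was lost with limma-voom or without WT2, WT3, KO2, KO3 or KO4. With DESeq2, 8 genes of this list were called lower. The number called higher was 0 without WT1 or KO3, and 1 without WT2 or KO1 or KO2.

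The other lists were called at shares below that of all genes. Of 20 other genes of chemokine receptor signalling 5 were called (25.0%) and 4 fell, among them the receptor kinase Grk3 (-0.63, adjusted p = 0.00169), the chemerin receptor Cmklr1 (-0.96, adjusted p = 0.00998) and Ccrl2 (-0.74, adjusted p = 0.0168, edgeR), and the platelet chemokine Ppbp rose (0.86, adjusted p = 0.0247, edgeR), a call lost without WT2 or WT3 or KO2 or KO3. Of 18 genes close to the interleukin 1 and TNF receptors 5 were called (27.8%): 4 fell (Birc2, Traf5, Traf2 and Irak3) and Tab1 rose. The Irak3 call was lost without each library in turn, those of Traf5 and Tab1 with the deposited factors, and 2 genes fell without WT2 or KO3. Of 11 inflammasome genes 3 were called (27.3%): the adaptor Pycard and Tlr4 fell and Nlrc4 rose (0.78, adjusted p = 0.00208, edgeR). Of 12 acute phase and adhesion targets none was called by edgeR, although the median log2 fold change was -0.60. Its 2 most abundant genes were Icam1, at 22.5, 18.7 and 36.6 CPM against 17.8 to 20 CPM, and Vcam1, at 17.4, 8.45 and 20.7 CPM against 13.4, 9.32, 10.5 and 8.63 CPM. In that list 3 genes were called lower without WT2, and 2 higher without WT3.

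**Figure D5:**
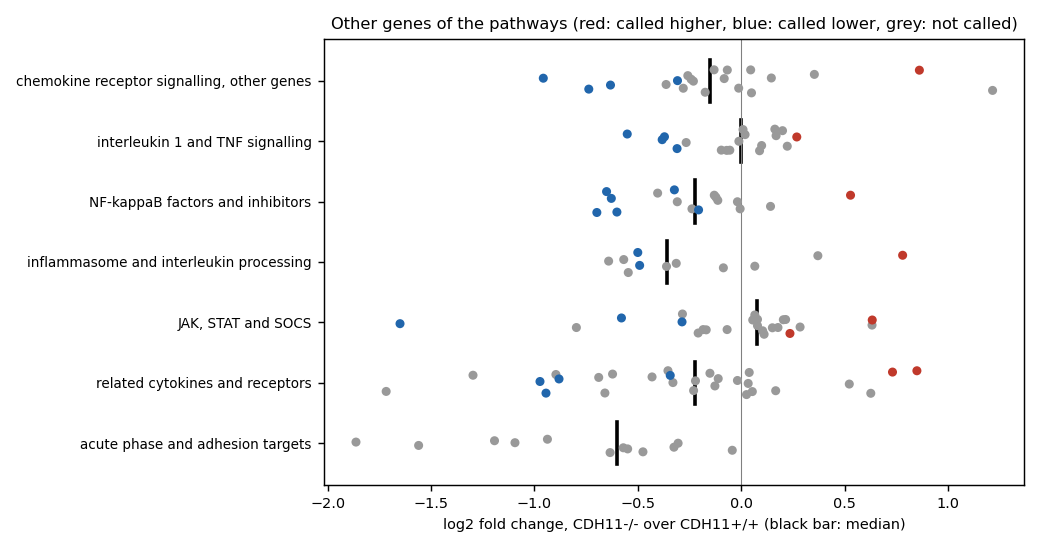
Log2 fold change (x axis) of the tested genes of 7 lists that share no gene with the set, 1 point a gene, with colours for the call and a black bar for the median. The NF-kappaB list shows 6 blue points and 1 red, and the acute phase list, with a median of -0.60, shows no coloured point.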

How the data were processed

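RNA from 7 kidneys was extracted with Trizol and a column kit and made into directional libraries, per the labels' protocols. The authors' expected counts, estimated reads per gene, were deposited as whole numbers. A normalized file was deposited too, its signal values being counts times gene- and library-specific factors of unstated origin. DRAGEN, DESeq2 and mm10 are named, without versions, in the submitters' processing notes. The annotation, strand setting and filters are not given in the sources used here.

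Symbols, positions and exon lengths came from GENCODE M21 (same assembly), which matched all 42256 identifiers. CPM used TMM-scaled library sizes. Genes were filtered with filterByExpr and tested with edgeR 4.0.16 (R 4.3.3, quasi-likelihood, robust, 2-sided, no covariate), Benjamini-Hochberg adjusted over 17964 genes. The printed SE is the fold change divided by the square root of F. Depth was 72087906 to 84786351 counts, with a biological coefficient of variation of 15.2%. Tested on simulated data for this comparison (17964 genes), the edgeR step recovered 29.9%, 77.6% and 87.9% of genes changed by 0.5, 1 and 2 on the log2 scale. Of those simulated calls, 8.45% were false. The changed genes (67, 67 and 66) were fewer than the genes called here and were drawn above a minimum mean count. Ackr4 and Ccr7 lie below that minimum, so these shares do not hold for genes as scarce. All 21 pairs of libraries differed by more than sampling noise (median chi-square per gene 2.51 to 10.9, against 0.455), so none was a repeat run of another. Such a comparison cannot show that the libraries came from separate mice, which was assumed in counting each as a sample. Whether libraries share a litter is not given, and p-values measure the spread between these samples. Limits for genes without counts cover counting error only, and printed SDs are between libraries.

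Alternatives were DESeq2 1.42.0, limma-voom with quality weights and limma-trend (limma 3.58.1), relative log expression scaling, dropping the filter, a minimum mean of 1 CPM, the deposited factors as offsets, symbols with letters after the digits, and leaving out each library. Members, lists and tests were chosen with earlier results of these data known. Genes are named if called, if their mean is at least 0.5 CPM, or if on a short list (Il6, Tnf, Il1b and others), and up to 4 called genes per pathway list with values, otherwise the 2 most abundant. Cxcl2, Il11, Csf3r and the scarce ligands were named after their values were seen. The comparison rests on symbols as annotated, so genes under other names are not included. A tested gene of the set counts in the totals and is not reported here by name.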

Additional observations from a re-analysis of the deposited data

Results flagged for a closer look

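Among the 4 knockout-labelled libraries, the CPM of Il31ra, a chain of the interleukin 31 receptor, was low in KO1 (0.165 CPM) while the other 3 lay close together at 0.237 to 0.251 CPM, a gap large for the range of the group. The counts were low, 14 in KO1 and 17, 21 and 20 in KO2 to KO4. It was the single such value among 82 genes examined, where chance gives about 1 in 20, so such values were no more frequent than by chance.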

How the results depend on the processing

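Relative log expression scaling left all 21 calls in place, DESeq2 20 of them, no filter 19, limma-voom 19, and each use of the deposited factors 17. No gene of the set reversed its direction with a call. Restricting the test to genes averaging 1 CPM or more tested fewer genes and left 9 called lower (14 in all). Letters after the digits added 9 rows and no call. Leaving out each library in turn gave 15 to 20 called genes of the set (5 to 10 higher and 9 to 13 lower), with a median log2 fold change of -0.24 to 0.09. Without WT1, 9 fell, and without WT3, 10 rose. Matching shares of all genes are not given for these fits, so such shifts cannot be called particular to the set. Over the cell type marker lists the number called was 30, and 17 (without WT1) to 39 (without WT2) with 1 library left out. The cause of these changes was not tested, beyond the smaller number of samples. Of the 21 calls 12 held without each library in turn, and 11 of these in every other alternative that tested them. Counts of at most 16 a library for Ackr4 and 34 for Ccr7 limit what those calls can show. No paired analysis was possible because the labels give no replicate numbers, and those used here follow accession order.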
